A study of Rattus norvegicus with 12 samples.

Results

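Heat shock proteins and chaperones are measured here by 10 listed genes, Hspa1a, Hspa1b, Hspa5, Hspa8, Hspb1, Hsp90aa1, Hsp90b1, Dnajb1, Hsph1 and Hspd1. The members were all probes of the array that were not control spots and that carried one of these symbols, which gave 15 probes of 9 genes among 30367 probes. No probe carried the symbol Hspa1a. Of the 15 probes, 14 were well above background in every rat, and 1 of the 2 probes of Hspa1b was above background in none.

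Colonic tissue came from male Wistar rats, with 1 array of 1 colour (Cy3) for each rat. Group C held 4 rats (C1 to C4) that were handled normally and received placebo. Group M held 4 rats (M5 to M8) that underwent neonatal maternal separation (NMS) for 180 min a day from day 2 to day 14 and received placebo. Group D held 4 rats (D9 to D12) that underwent the same NMS and received VSL#3, a mixture of probiotic bacteria, from day 3 to day 60, at a dose that differs between the methods and the sample labels. All 12 rats underwent colorectal distension (CRD), in which a balloon is inflated in the rectum, and tissue was taken at day 60. No group without CRD was measured on arrays, so each comparison is between rats that all underwent it.

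Heat shock proteins are chaperones, that is, proteins that hold other proteins in a folded state or help them to reach it. In the cytosol, HSP70 proteins bind unfolded stretches, J-domain proteins such as Dnajb1 deliver clients to them, exchange factors such as Hsph1 release the clients, and HSP90 takes over proteins that are nearly folded. The heat-inducible genes among them are switched on by the heat shock factor Hsf1 through heat shock elements, whereas Hspa5 and Hsp90b1 work inside the endoplasmic reticulum (ER) and are switched on by the unfolded protein response through ER stress response elements. Hspd1 folds proteins in mitochondria, and Hspb1 is a small heat shock protein that keeps damaged proteins soluble.

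The stretches before the start of these genes are shown because some of them hold the letters of these elements. RefSeq promoters of the GRCr8 build were at hand for 8 of the 10 listed genes, namely Hspa1a, Hspa5, Hspa8, Hspb1, Hsp90b1, Dnajb1, Hsph1 and Hspd1. The 250 bases before the start were searched on both strands for a heat shock element of 3 units (GAANNTTCNNGAA or TTCNNGAANNTTC) and for the ER stress response element (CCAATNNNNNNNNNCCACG or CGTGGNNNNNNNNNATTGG). The first was found in 3 of the 8 windows, those of Hspa8, Hspd1 and Hsph1, against 0.663% of all 33469 promoters. The second was found in 2 of the 8, those of Hspa5 and Hsp90b1, against 0.0657% of all promoters. A looser element of 2 units (GAANNTTC or TTCNNGAA), which every element of 3 units contains, was found in 5 of the 8, adding Hspb1 and Dnajb1, against 13.5% of all promoters. The windows below run 5′ to 3′ on the strand of the gene, with the matched letters in capitals.
Hsph1, chr12:10427317-10427359, plus strand: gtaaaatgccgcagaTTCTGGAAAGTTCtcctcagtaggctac
Hspd1, chr9:64084247-64084287, minus strand: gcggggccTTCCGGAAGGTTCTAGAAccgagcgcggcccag
Hspb1, chr12:26432388-26432445, minus strand: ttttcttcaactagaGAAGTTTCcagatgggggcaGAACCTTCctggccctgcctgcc
Dnajb1, chr19:41431142-41431167, minus strand: gcatcgggaggggcgGAAGGTTCtgg
Hspa5, chr3:38452958-38453006, plus strand: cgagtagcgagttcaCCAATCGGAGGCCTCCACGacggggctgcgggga
Hsp90b1, chr7:23012332-23012484, minus strand: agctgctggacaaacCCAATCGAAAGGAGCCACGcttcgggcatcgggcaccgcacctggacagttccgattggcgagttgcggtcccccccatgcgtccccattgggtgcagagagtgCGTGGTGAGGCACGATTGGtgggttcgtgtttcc
The element of Hsph1 began 36 bases before the start of the gene and that of Hspa5 43 bases before it, while Hsp90b1 held 1 match on each strand. The 2 elements of Hspa8 began 213 and 55 bases before its start. The window of Hspa1a held none of the 3 elements. A match of letters is a description of the window and not a binding site.

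On all 12 arrays, 75.5% to 77.5% of the spots lay well above background, 0 spots were saturated, and the 75th percentile of the signal ran from 1434 to 1950. Values are log2 signals relative to this percentile, which stands in place of depth on arrays, and the number of arrays limits the precision. The groups were compared by limma on 11 arrays, without D12, since the methods of the study give 11 arrays and show D9 to D11 for Group D, and the values of D12 are shown throughout. The arrays did not stand at equal distance from Group C. Of 20305 probes well above background on all arrays, those 2-fold or more away from the average of Group C (of its other rats, for a rat of Group C) numbered 155 to 672 in C1 to C4 and 162 to 381 in D9 to D11. They numbered 291 in M6, 1204 to 2757 in M5, M7 and M8, and 2307 in D12. Groups C and M shared 1 slide, with C on its first array row and M on its second, so array row and group cannot be told apart there. All arrays of Group D lay on another slide, so for Group D slide and group cannot be told apart. Epithelial markers (12 of 12) and smooth muscle markers (9 of 9) stood well above background in all rats, as did 3 of 6 markers of stratified squamous epithelium (Krt4, Krt5 and Krt14), while the other 3 (Krt10, Krt13 and Dsg3) did so in none.

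The first comparison, Group M against Group C, asks what NMS changes in the colon. The signals of all 14 detected probes were on average higher in Group M, with a median log2 difference of 0.84 against -0.01 over all probes. A probe is said to be called where its limma p, adjusted over all probes, did not exceed 0.05, and to pass the nominal threshold where the p without adjustment did not exceed 0.05. Of the 15 probes 1 was called, that of Hspa1b, against 0.207% of all probes. At the nominal threshold, 9 probes of 6 genes were higher, against 9.86% of all probes, and 0 were lower, against 12.9% of all probes. In 8 probes of 5 genes every rat of Group M lay above every rat of Group C, against 4.08% of all probes. Group D against Group M asks what VSL#3 changes in rats with NMS. There 0 of the 15 probes were called, against 0.161% of all probes, and 6 probes of 4 genes were lower at the nominal threshold, against 9.85% of all probes. Of the members, 0 were higher there, against 11.8% of all probes, and in 6 probes every rat from D9 to D11 lay below every rat of Group M, against 6.89%. The median log2 difference of the detected probes was -0.83, against 0.02 over all probes. Both comparisons use the rats of Group M. Group D against Group C asks how far the treated rats stood from rats without NMS. There 0 probes were called, against 0.00659% of all probes, and 2 probes, both of Hspa8, were higher at the nominal threshold, against 3.15% of all probes, with 0 lower, against 2.83%. In 3 probes of 2 genes, Hspa8 and Dnajb1, D9 to D11 lay above every rat of Group C, against 3.82%. In bulk tissue, more cells of a type and more RNA per cell cannot be told apart.

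**Figure D1:**
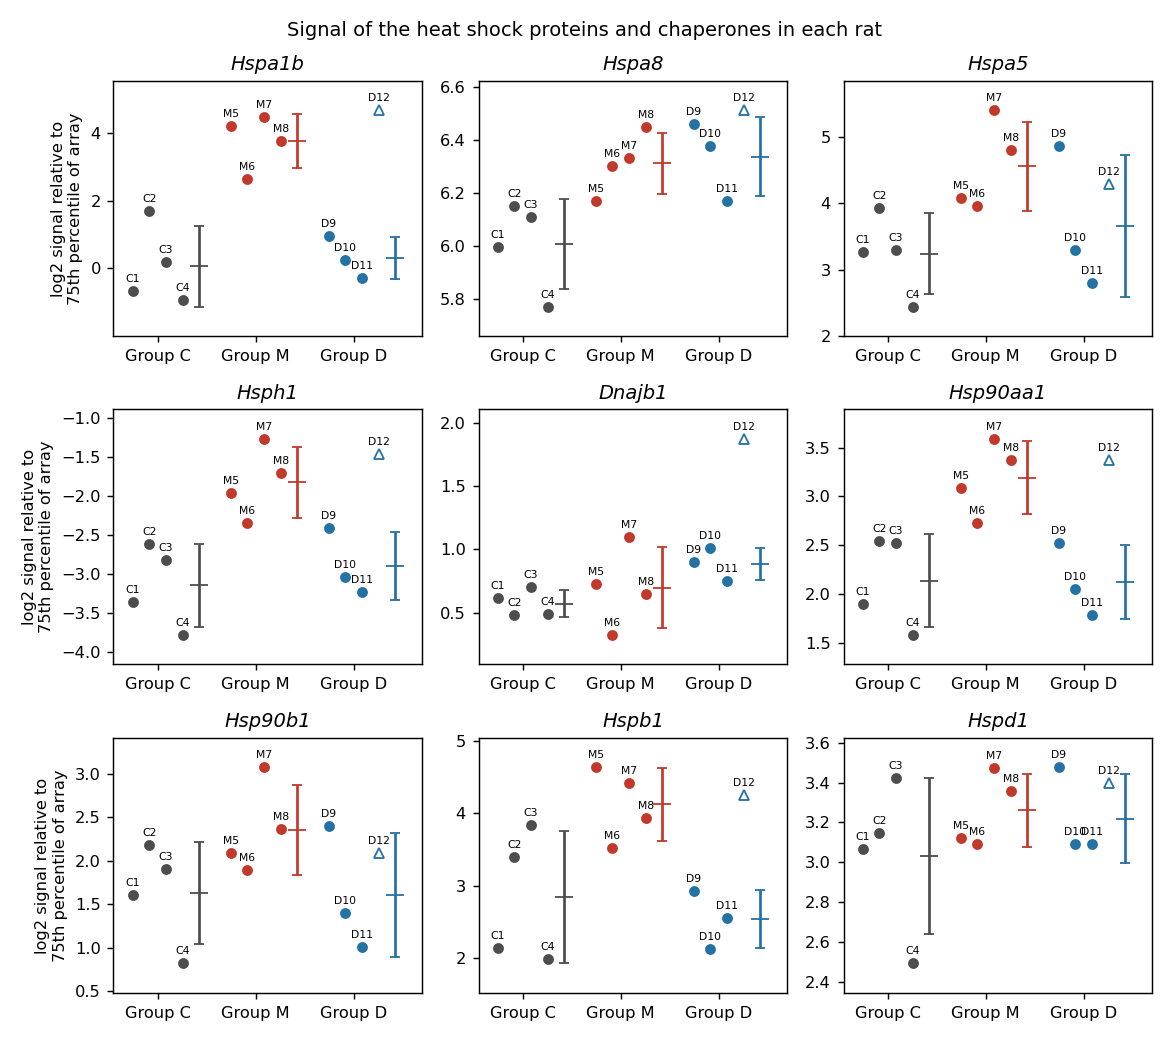
Signal of each gene in each rat by its brightest probe (vertical axis, log2 signal relative to the 75th percentile of the array), with the mean and SD of each group beside the points. The triangle is rat D12, which is left out of the mean of Group D; every rat of Group M lies above every rat of Group C for Hspa1b, Hspa5, Hspa8, Hsph1 and Hsp90aa1.

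Hspa1b encodes the heat-inducible HSP70, which is scarce in resting cells and made in large amounts after stress. Its detected probe, A_44_P1042876, lies at chr20:3957864-3957923 of the rn4 build. The log2 signal was -0.68 in C1, 1.70 in C2, 0.19 in C3 and -0.94 in C4. In M5 it was 4.20, in M6 2.65, in M7 4.46 and in M8 3.77. In Group D it was 0.94 in D9, 0.25 in D10, -0.29 in D11 and 4.66 in D12. The 4 rats of Group M lay above all rats of Group C and above D9 to D11, while D12 had the highest value of all 12 rats. The mean was 0.07 ± 1.19 (SD, n = 4) in Group C, 3.77 ± 0.80 (SD, n = 4) in Group M and 0.30 ± 0.62 (SD, n = 3) in D9 to D11. Hspa1b rose by 3.70 (SE 0.59) on the log2 scale in Group M against Group C, a 13.0-fold difference (limma, adjusted p = 0.047). This call did not hold with all 12 arrays in the model (adjusted p = 0.182), nor when any one of C1, C3, C4, M5, M7, M8, D9, D10 or D11 was left out (adjusted p from 0.0693 to 0.16). The difference itself stayed between 3.36 and 4.25 under the 21 other settings tried, with adjusted p from 0.0033 to 0.227. Between Group D and Group M the difference was -3.47 (SE 0.64), 11.1-fold, which missed the threshold (limma, adjusted p = 0.0688), and with D12 it was -2.38 (adjusted p = 0.372). Groups D and C differed by 0.23, with a 95% interval from -1.18 to 1.65. The other probe of this symbol, A_64_P096658 at chr20:3959493-3959552, was not well above background in any rat, so the 2 probes disagree. Hspa1a and Hspa1b are neighbouring genes with nearly the same coding sequence. A_44_P1042876 has no open reading frame over its length, and whether it also binds the transcript of Hspa1a was not tested.

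Hspa8 is the constitutive HSP70, made in nearly all cells. Of its 4 probes, the brightest (A_64_P023392, chr8:43787518-43787576) had log2 signals of 6.00, 6.15, 6.11 and 5.77 in C1 to C4. They were 6.17, 6.30, 6.33 and 6.45 in M5 to M8 and 6.46, 6.38, 6.17 and 6.51 in D9 to D12. By this probe and by A_64_P061286, Groups M and D lay above Group C and overlapped with each other. By A_64_P014723 and A_64_P096381, both groups overlapped with Group C. The difference between Group M and Group C ran from 0.29 to 0.36 over the 4 probes (limma, adjusted p from 0.157 to 0.394). Between Group D and Group C it ran from 0.21 to 0.48 (limma, adjusted p from 0.694 to 0.982), and between Group D and Group M from -0.08 to 0.11. Where Hspa1b stood 13.0-fold higher in Group M, Hspa8 by this probe stood 1.24-fold higher. The probes A_64_P014723 and A_64_P096381 are shown because they share 20 bases, in capitals, and are therefore not independent measures.
A_64_P014723: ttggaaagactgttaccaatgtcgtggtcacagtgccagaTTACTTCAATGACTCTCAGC
A_64_P096381: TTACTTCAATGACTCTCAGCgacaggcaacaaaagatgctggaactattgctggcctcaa
The annotation names 33 pseudogenes after Hspa8, 20 after Hspd1 and 16 after Hsp90aa1, so the source of these signals is uncertain where copies share a probe's sequence.

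Hsph1 encodes HSP110, which frees HSP70 from its nucleotide, and Dnajb1 encodes the J-domain protein that hands clients to the inducible HSP70. For Hsph1 the log2 signal of A_44_P121374 (chr12:5809732-5809791) was -3.37, -2.63, -2.82 and -3.79 in C1 to C4. It was -1.97, -2.35, -1.27 and -1.71 in M5 to M8 and -2.41, -3.04, -3.24 and -1.47 in D9 to D12. All rats of Group M lay above Group C and above D9 to D11, and D12 lay between M7 and M8. The difference was 1.32 (SE 0.31) between Groups M and C (limma, adjusted p = 0.0962) and -1.07 (SE 0.33) between Groups D and M (limma, adjusted p = 0.125). For Dnajb1 the log2 signal (A_44_P309780, chr19:26214035-26214094) was 0.62, 0.48, 0.70 and 0.49 in C1 to C4 and 0.72, 0.32, 1.10 and 0.65 in M5 to M8, and these groups overlapped. In D9 to D12 it was 0.90, 1.01, 0.75 and 1.87, above every rat of Group C. The difference between Groups M and C was 0.13, with a 95% interval from -0.21 to 0.46, and that between Groups D and C was 0.31 (limma, adjusted p = 0.876). The windows of both genes hold a heat shock element of 2 units, and that of Hsph1 also one of 3 units.

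Hsp90aa1 encodes the inducible form of cytosolic HSP90. Its brightest probe (A_64_P119852, chr6:135413693-135413752) had log2 signals of 1.89, 2.54, 2.52 and 1.58 in C1 to C4, 3.09, 2.73, 3.59 and 3.37 in M5 to M8, and 2.53, 2.05, 1.78 and 3.37 in D9 to D12. Group M lay above Group C and above D9 to D11, and D12 lay at the level of M8. In the other 2 probes Group M also lay above Group C and above D9 to D11, and D12 lay between M6 and M5 for A_44_P299870 and between M8 and M7 for A_64_P023633. The difference between Groups M and C ran from 0.95 to 1.07 over the 3 probes (limma, adjusted p from 0.101 to 0.111). Between Groups D and M it ran from -1.31 to -1.02 (limma, adjusted p from 0.0828 to 0.135), and between Groups D and C from -0.36 to 0.05. The probe A_44_P299870 has an open reading frame over its whole length and is shown as the one of the 3 with the difference farthest below 0 between Groups D and M.
A_44_P299870: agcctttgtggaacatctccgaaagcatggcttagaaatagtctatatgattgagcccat

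Hspb1, the small heat shock protein HSP27, also binds actin and is abundant in muscle. Its log2 signal (A_44_P992908, chr12:21911494-21911664) was 2.15, 3.40, 3.84 and 1.99 in C1 to C4, 4.63, 3.51, 4.42 and 3.93 in M5 to M8, and 2.93, 2.13, 2.56 and 4.26 in D9 to D12. Group C was spread widely, with C3 above M6, and D9 to D11 lay below every rat of Group M. The difference was 1.28 (SE 0.43) between Groups M and C (limma, adjusted p = 0.133) and -1.59 (SE 0.46) between Groups D and M (limma, adjusted p = 0.112). Between Groups D and C it was -0.30, with a 95% interval from -1.33 to 0.72. The probe of Hspb1 and that of Hsph1, which both have an open reading frame over their length, are shown as the measures behind these values.
Hspb1, A_44_P992908: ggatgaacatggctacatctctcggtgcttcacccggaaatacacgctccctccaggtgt
Hsph1, A_44_P121374: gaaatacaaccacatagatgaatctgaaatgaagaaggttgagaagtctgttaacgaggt

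Hspa5 (BiP) is the HSP70 of the ER and a standard measure of ER stress, and Hsp90b1 (GRP94) is the HSP90 of the ER. The log2 signal of Hspa5 (A_44_P1054213, chr3:13787739-13787798) was 3.27, 3.93, 3.30 and 2.44 in C1 to C4. It was 4.07, 3.96, 5.40 and 4.80 in M5 to M8 and 4.86, 3.30, 2.80 and 4.30 in D9 to D12. Group M lay above Group C, with its lowest rat, M6, just above C2, and Group D ran across both, with D9 above M8. The difference between Groups M and C was 1.32 (SE 0.49; limma, adjusted p = 0.156), and between Groups D and M it was -0.90, with a 95% interval from -2.08 to 0.28. Hsp90b1 (A_43_P15719, chr7:23334474-23334623) had log2 signals of 1.61, 2.18, 1.91 and 0.82 in C1 to C4, 2.09, 1.89, 3.08 and 2.36 in M5 to M8, and 2.40, 1.40, 1.01 and 2.09 in D9 to D12. All 3 groups overlapped. The difference was 0.73 between Groups M and C (limma, adjusted p = 0.288) and -0.75 between Groups D and M (limma, adjusted p = 0.32). In both ER chaperones D9 stood above D12, as it did in the mitochondrial Hspd1. In Hspa1b, Hspa8, Hsph1, Dnajb1, Hspb1 and Hsp90aa1 D12 stood above D9, though by only 0.002 for the Hspa8 probe A_64_P061286. The windows of Hspa5 and Hsp90b1 are those that hold the ER stress response element.

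Hspd1 (HSP60), the chaperonin of mitochondria, had log2 signals of 3.06, 3.15, 3.42 and 2.49 in C1 to C4 (A_64_P076567, chr9:53884368-53884427). They were 3.12, 3.09, 3.47 and 3.36 in M5 to M8 and 3.48, 3.09, 3.09 and 3.40 in D9 to D12. The groups overlapped in every comparison. The difference between Groups M and C was 0.23, with a 95% interval from -0.20 to 0.66, and that between Groups D and M was -0.04, with an interval from -0.50 to 0.42.

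**Figure D2:**
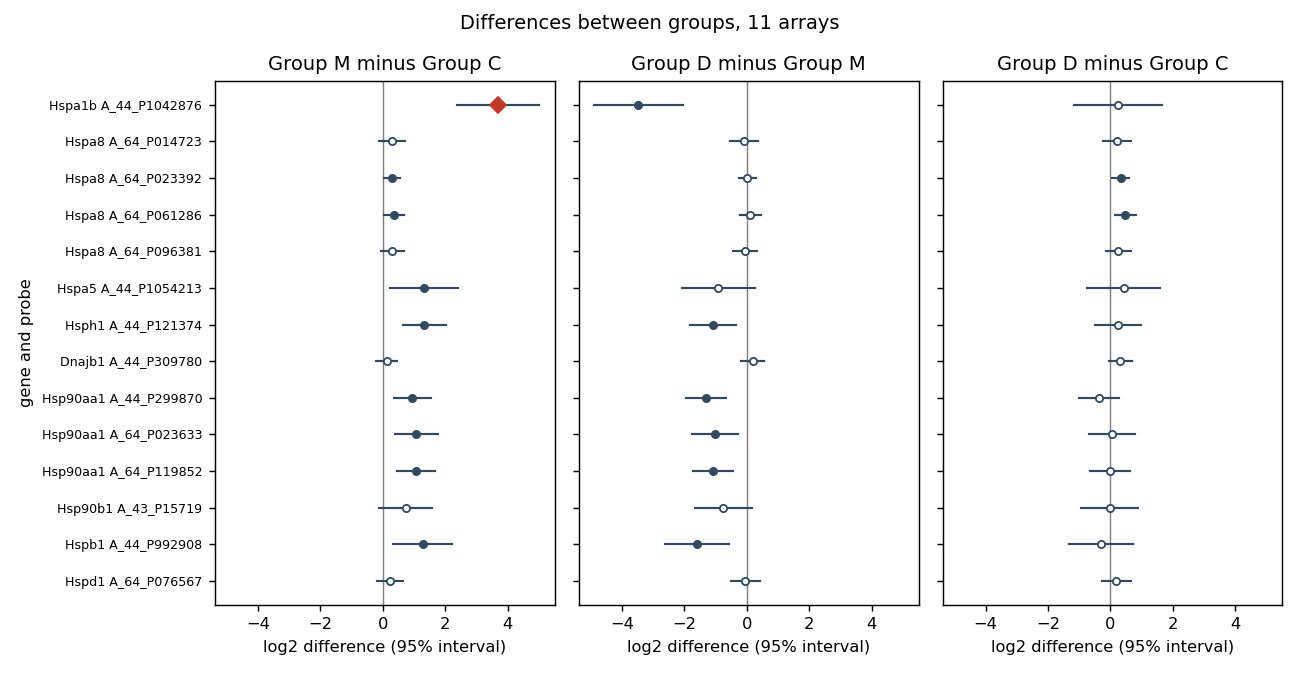
Log2 differences between groups (horizontal axis) for the 14 detected probes, with 95% intervals from limma on 11 arrays. The diamond is the 1 called probe, Hspa1b in Group M against Group C, and filled circles are probes past the nominal threshold; the intervals of Hspd1 and Dnajb1 span 0 in all 3 comparisons.

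The group means were ordered by the brightest probe of each gene, with D9 to D11 for Group D. The order was Group M, Group D, Group C for Hspa1b, Hsph1 and Hspa5. It was Group M, Group C, Group D for Hspb1, Hsp90aa1 and Hsp90b1. In these 6 genes the mean of D9 to D11 lay within 1 SD of the mean of Group C. The Hsp90aa1 probe A_64_P023633 put Group D above Group C instead, by 0.05. For Hspa8 and Dnajb1 the order was Group D, Group M, Group C, although the Hspa8 probes A_64_P014723 and A_64_P096381 put Group M above Group D. For Hspd1 it was Group M, Group D, Group C. With D12 included, Group D minus Group C was 1.32 for Hspa1b and 0.61 for Hsph1. Both exceed the SD of Group C, 1.19 and 0.53. Group D then also lay above Group C for Hspb1 (by 0.125), Hsp90aa1 (A_64_P119852, by 0.301) and Hsp90b1 (by 0.0973). Over the 12 rats, Pearson's r between the brightest probes of 2 members ran from 0.27 to 0.99 over the 36 pairs. The highest, 0.99, joined Hsp90aa1 and Hsph1, and the lowest, 0.27, joined Hsp90b1 and Dnajb1. These values share the group means and the scaling of each array, so they describe a pattern over 12 points.

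Among 14004 probes of other named genes well above background in every rat, the 5 genes whose signal followed Hspa1b most closely were Arc (r = 0.99 over 12 rats), Akap2 (0.97), Rcan1 (0.97), Tnfrsf12a (0.97) and Fgf7 (0.97). Arc is an early gene of stimulated neurons, Rcan1 an inhibitor of calcineurin, Tnfrsf12a the receptor of TWEAK, and Fgf7 a growth factor that stroma makes for epithelium. Arc had a mean log2 signal of -4.39 in Group C, -1.65 in Group M and -4.50 in D9 to D11, with -0.59 in D12. The 5 genes most like Hspa5 were Manf (r = 0.99), Dnajb11 (0.98), Sdf2l1 (0.97), Pdia4 (0.97) and Wars (0.97). The first 4 encode ER proteins that act in folding or are secreted during ER stress, and Wars charges tRNA with tryptophan. Manf had a mean log2 signal of 0.80 in Group C, 1.71 in Group M and 1.10 in D9 to D11, with 2.09 in D9 and 0.41 in D11. These genes were chosen for their likeness over the same 12 rats, so their values in D9 and D12 add nothing independent of Hspa1b and Hspa5.

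**Figure D3:**
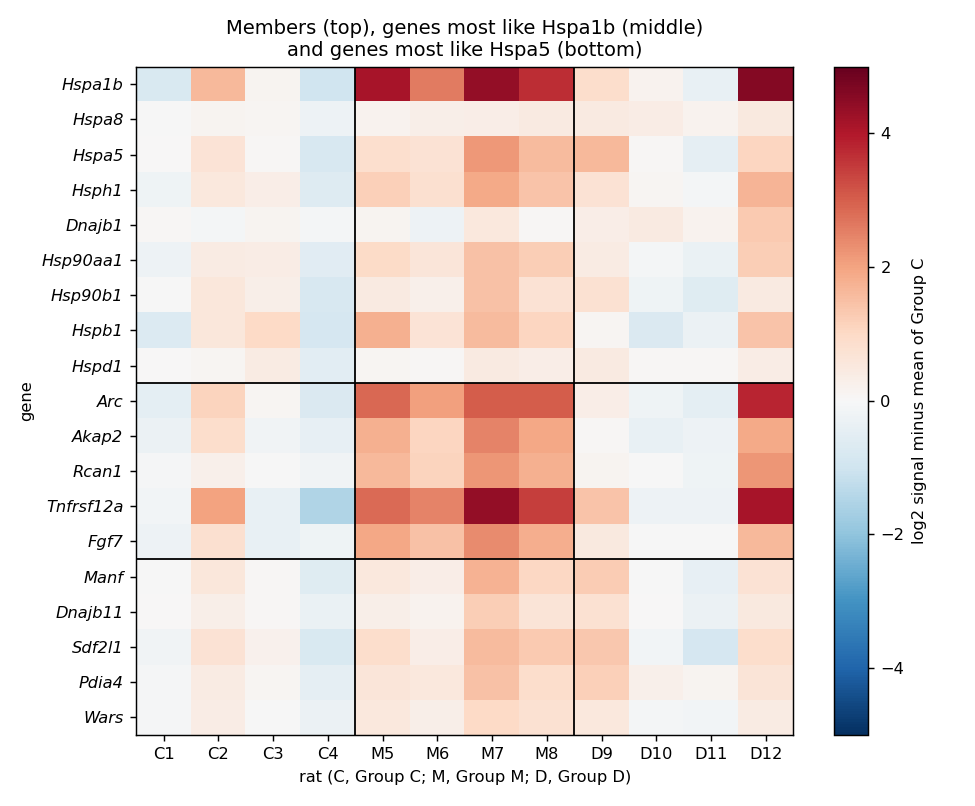
Log2 signal minus the mean of Group C (colour) for each rat (columns) in the 9 measured members by their brightest probe, the 5 genes most like Hspa1b and the 5 most like Hspa5 (rows). M5 to M8 and D12 are darkest for Hspa1b and the genes like it, where M6 is palest among Group M, and D9 is as dark as M8 for Hspa5.

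The wider chaperone lists held 123 genes, of which 114 had a named probe. By limma 0 were called in any of the 3 comparisons. At the nominal threshold, 33 were higher and 3 lower in Group M than in Group C, where the shares over all probes were 9.86% and 12.9%. In Group D against Group M 8 were higher and 21 lower, where those shares were 11.8% and 9.85%. In Group D against Group C, 4 were higher and 1 lower, where they were 3.15% and 2.83%. The median log2 difference between Groups M and C was 0.18 over the 114 genes, against -0.01 over all probes.

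By class, the share higher in Group M at the nominal threshold was 8 of 17 for J-domain proteins other than Dnajb1, 5 of 11 for the TRiC chaperonin and prefoldin, 4 of 13 for HSP90 and its co-chaperones, 3 of 9 for small heat shock proteins and 2 of 11 for HSP70 exchange factors and BAG proteins. Of the other HSP70 genes it was 1 of 10. These counts stand beside a share of 9.86% over all probes, near which those of the HSP70 genes and the exchange factors lie. Dnaja1, a cytosolic J-domain protein, had a log2 difference of 0.97 and Dnajb4 one of 0.60 (limma, adjusted p = 0.0904 and 0.126). Of TRiC, the ring that folds actin and tubulin, Cct6a differed by 0.58 and Cct3 by 0.47 (limma, adjusted p = 0.0996 and 0.106). Bag3, which links HSP70 to small heat shock proteins, differed by 0.88 and Bag2 by 0.62. Among small heat shock proteins, Hspb9 differed by 1.86 and Hspb8, the partner of Bag3, by 0.60, with limma adjusted p of 0.0905 and 0.151. Of the HSP90 partners, Ptges3 (p23) differed by 0.31 and Fkbp5, an immunophilin that glucocorticoids induce, by 1.004. Fkbp5 was also higher in Group D than in Group M, by 0.94 (limma, adjusted p = 0.0988), where Hspa1b was lower. Of the other HSP70 genes, Hspa1l differed by 1.06 and was well above background in 3 of 12 rats, and Hspa4 differed by 0.33.

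Of 20 ER chaperones and folding enzymes, 5 were higher in Group M at the nominal threshold. Among them were Dnajb9 and Dnajc10, which are also counted with the J-domain proteins, since some genes stand in more than 1 class. Of 17 genes of unfolded protein response signalling 7 were higher and 1 was lower. Over all probes the shares were 9.86% higher and 12.9% lower. Serpinh1 (HSP47), the collagen chaperone, differed by 0.87 between Groups M and C (limma, adjusted p = 0.0533) and by -0.82 between Groups D and M (limma, adjusted p = 0.0702). Pdia2 differed by 0.99 and was well above background in 5 of 12 rats. Asns, the asparagine synthetase, differed by 1.26 and Derl3, of ER-associated degradation, by 0.69 (limma, adjusted p = 0.0904 and 0.105). Of 11 mitochondrial chaperones and proteases 0 were higher and 1, Clpx, was lower, at -0.24, with Hscb at -0.39. The 1 of 11 lies near the share of 12.9% lower over all probes. Of 5 heat shock factors and their partners 0 passed in either direction, with Hsf1 at 0.12 and Hsf2 at 0.12.

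**Figure D4:**
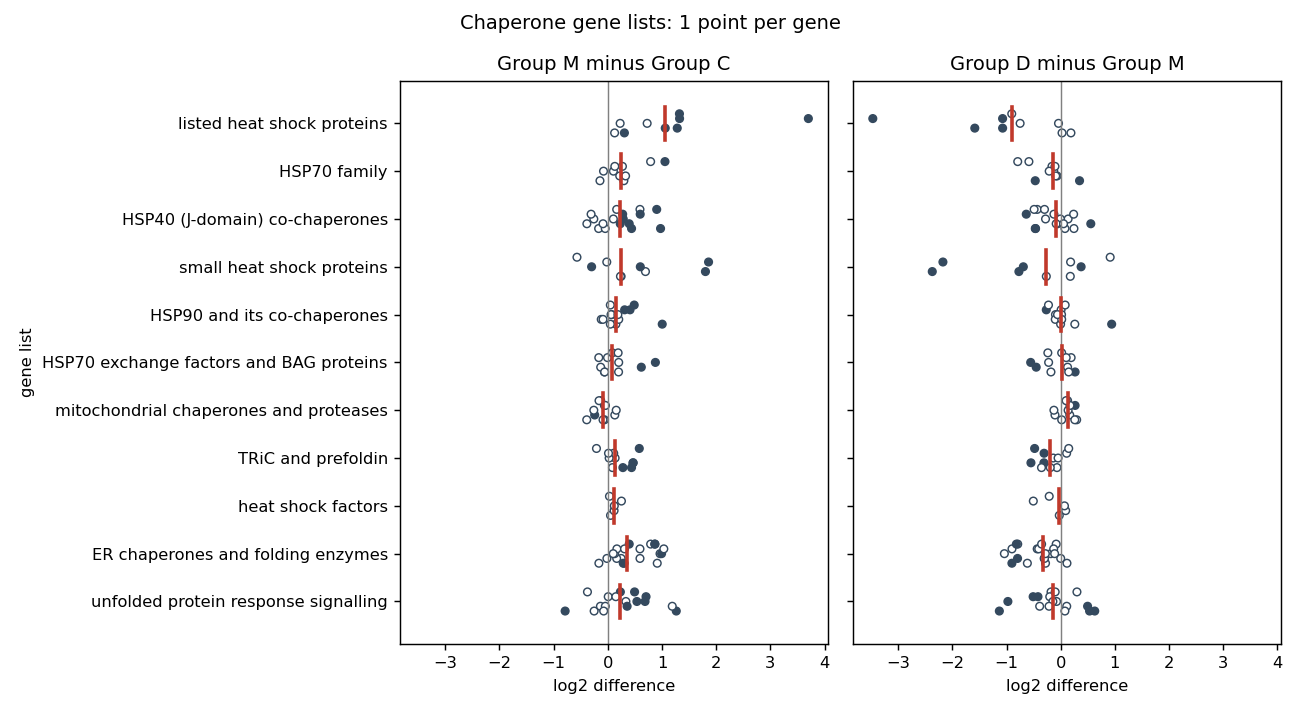
Log2 differences of Group M minus Group C (left) and Group D minus Group M (right) for the members and 10 chaperone lists, with 1 point per gene and the median of each list as a bar. Filled points are genes past the nominal threshold; the bar of the 9 members stands at 1.06 on the left and at -0.90 on the right.

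Markers of other cells and early genes were examined beside these values, at the nominal threshold. Over all probes, 9.86% were higher and 12.9% lower in Group M than in Group C. In Group D against Group M, 11.8% were higher and 9.85% lower. The counts of these lists stand beside those shares, and a count of 1 in a list of 9 or 12 lies near them. Of 9 myeloid markers, 5 were higher in Group M than in Group C and 5 were lower in Group D than in Group M. Their summed level, in multiples of the 75th percentile, ran from 16.2 to 42.8 in Group C, from 18.5 to 64.6 in Group M and from 16.2 to 19.1 in D9 to D11, and was 47.8 in D12. Of 8 lymphocyte markers, 0 were higher in Group M and 3 were lower in Group D than in Group M. Their summed level ran from 0.605 to 7.91 in Group C, from 0.591 to 10.3 in Group M and from 0.43 to 1.22 in D9 to D11, and was 18.5 in D12. The lowest value of Group M was that of M6. Csf3r, among the 5 myeloid markers higher in Group M, was well above background in 3 of 12 rats. Ms4a1, among the 3 lymphocyte markers lower in Group D, was well above background in 8 of 12 rats.

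Of 8 skeletal muscle markers, 3 (Acta1, Myh1 and Tnnt3) were higher in Group M and 2 were lower in Group D than in Group M, with a summed level of 0.768 to 1.34 in Group C, 0.91 to 2.14 in Group M, 0.964 to 1.16 in D9 to D11 and 1.34 in D12. Myh1 was well above background in 2 of 12 rats. Of 9 smooth muscle markers 1 was higher in Group M, and 2 were higher in Group D than in Group M. Of 12 markers of the colonic epithelium, 1 (Krt20) was higher and 1 (Car1) lower in Group M than in Group C. In Group D against Group M, 3 of them (Slc26a3, Car1 and Car4) were higher. The summed epithelial level was 239 to 339 in Group C, 258 to 320 in Group M, 280 to 363 in D9 to D11 and 222 in D12. Of 12 markers of enteric neurons and glia, 3 (Tubb3, Gfap and Sox10) were higher in Group M. Of the same 12, 4 were higher and 3 lower in Group D than in Group M. Gfap was well above background in 7 of 12 rats. Of 3 mesothelial markers 2 were lower in Group M, with a summed level of 1.30 to 1.69 in Group C, 0.61 to 1.12 in Group M, 0.489 to 1.24 in D9 to D11 and 0.485 in D12. Of 16 immediate early genes, 4 were higher in Group M and 3 were lower in Group D than in Group M. Their summed level ran from 22.9 to 28.7 in Group C, from 24.2 to 47.0 in Group M and from 25.2 to 34.98 in D9 to D11, where D9 and D10 lay above all rats of Group C, and was 50.8 in D12. The part of these lists in the differences of the heat shock genes was not tested.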

How the data were processed

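Colonic RNA of 12 rats was measured on Agilent 60K rat arrays of 1 colour. Per the file headers, Agilent Feature Extraction 10.5.1.1 gave the deposited intensities of each array, background-subtracted and not normalized between arrays, with probe positions on rn4. The authors' value table holds log2 values per probe and served as an alternative. Its columns have medians of 7.28, each follows the log2 intensity of its own array, and its normalization is not given in the sources used here.

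Intensities were put on the log2 scale minus the log2 of the array's 75th percentile, control and outlier spots were left out, and spots of a probe were averaged. limma 3.58.1 (R 4.3.3) fitted the 3 groups in one model over 11 arrays, with Benjamini-Hochberg adjustment over 30367 probes and a threshold of 0.05. The procedure was tested on simulated data. The members and lists were chosen with earlier results of these data known. Every probe of the members is named. A gene of a wider list is measured by its brightest probe, and the 2 genes with the lowest p between Groups M and C are named from each list, with any called one. Figures were drawn with matplotlib 3.10.9. Alternatives were all 12 arrays, normexp (offset 50), quantile and median scaling, the authors' table, outlier spots kept and a filter on dim probes. Others were the replicate number as a block, array weights, 2 groups alone, the criterion of the methods and each rat left out. That criterion asks for p of at most 0.05 by analysis of variance and by Tukey's test and a 2-fold change. It is not adjusted over probes. The animals are separate rats. RefSeq promoter sequences and the gene and pseudogene names of the annotation were used. Probes were not matched to a genome or to transcripts, and no protein table was used.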

Additional observations from a re-analysis of the deposited data

Results flagged for a closer look

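Rat D12 is the fourth rat of Group D, which the 11-array comparisons leave out. In 12 of the 14 detected probes of the members its log2 signal lay above every rat of Group C. It was 4.66 for Hspa1b, 4.30 for Hspa5, 4.26 for Hspb1, 1.87 for Dnajb1 and -1.47 for Hsph1. It was 2.16, 2.05 and 3.37 for the Hsp90aa1 probes A_44_P299870, A_64_P023633 and A_64_P119852. It was 2.46, 6.51, 5.17 and 3.45 for the Hspa8 probes A_64_P014723, A_64_P023392, A_64_P061286 and A_64_P096381. In all 14 probes D12 lay above the lowest rat of Group M, and in 11 it lay above D9, D10 and D11. For Hspa1b it stood 3.72 above the highest of D9 to D11 and for Hspb1 1.33 above it. On its array 2307 of 20305 probes were 2-fold or more away from the average of Group C, and its summed lymphocyte markers were the highest of the 12 rats, at 18.5. What set D12 apart was not tested.

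In none of the 42 groups of 4 rats examined, 3 for each detected probe, did 1 rat stand apart from the other 3 by Dixon's test at the 95% level. With 4 values only a very wide gap passes this test. It did not single out D12 for Hspa1b, at 4.66 against -0.29 to 0.94 in D9 to D11. The count of 0 therefore does not show that no rat stood apart.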

How the results depend on the processing

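The count of member probes called between Groups M and C, 1 in the report, was 0 with all 12 arrays, quantile scaling, median scaling, the authors' table, the replicate number as a block or 2 groups alone. It was 9 with array weights, 4 by the criterion of the methods and 0 to 5 with 1 rat left out, where 5 came without M6. Between Groups D and M the count, 0 in the report, was 1 with normexp, 1 with the filter on dim probes, 6 with array weights and 5 by the criterion of the methods. With 1 rat left out it was 0 to 5 (5 without M6, 1 without C2). At an unadjusted p of at most 0.05 it was 6 in the report, 3 with all 12 arrays and 6 to 8 with 1 rat left out. Between Groups D and C 0 were called under every setting, and the unadjusted count of 2 was 1 with the replicate block and 0 to 3 with 1 rat left out. Over all probes, the calls between Groups M and C were 63 in the report, 12 with 12 arrays, 147 with normexp, 8050 with array weights, 1 with the block, 707 by the criterion of the methods and 4 to 4913 with 1 rat left out, where 4913 came without M6. They were also 33 with the authors' table, 110 with the filter on dim probes and 24 with 2 groups alone. For Groups D and M they were 49 in the report, 4 with 12 arrays, 252 with normexp, 295 with the filter, 6602 with array weights, 12 with 2 groups alone, 1 with the block, 805 by the criterion and 1 to 4543 with 1 rat left out (4543 without M6). For Groups D and C they were 2 in the report, 7 with array weights, 6 with the authors' table, 0 with quantile scaling, 2 groups alone or the block, 111 by the criterion and 0 to 12 with 1 rat left out.

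Between rats with the same replicate number, the deviations from the group mean correlated from -0.72 to 0.18 over probes. With so few rats these values cannot show whether the numbers paired the rats. With the block Hspa1b differed by 3.70 (adjusted p = 0.227) between Groups M and C.

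Of 882 differences recomputed, 39 changed direction, none of them to a size above 0.301, and the cause was not tested. With all 12 arrays Hspa8 gave 0.0182 (A_64_P014723) and 0.0243 (A_64_P096381) and Hspd1 0.00298 between Groups D and M, and Hspb1 gave 0.125, Hsp90aa1 0.301 (A_64_P119852) and Hsp90b1 0.0973 between Groups D and C. For the same groups Hsp90b1 gave 0.0165 with normexp and 0.0327 with median scaling. Hsp90aa1 (A_64_P119852) gave 0.0437 with median scaling and 0.0196 with array weights, and A_64_P023633 gave -0.0567 with the replicate block. In Group D against Group M, Hspa8 gave 0.0107 (A_64_P096381) with median scaling and -0.0459 (A_64_P023392) with array weights, and Hspd1 gave 0.0212 with median scaling. With 1 rat left out, the difference between Groups M and C ran from -0.00727 to 0.251 for Dnajb1. For Groups D and M it ran from -0.17 to 0.0291 for Hspd1 and, for Hspa8, from -0.175 to 0.0654 (A_64_P014723), from -0.0386 to 0.107 (A_64_P023392) and from -0.124 to 0.065 (A_64_P096381). For Groups D and C it ran from -0.104 to 0.778 for Hspa1b, from -0.185 to 0.844 for Hspa5, from -0.589 to 0.0268 for Hspb1, from -0.421 to 0.272 for Hsp90b1 and, for Hsp90aa1, from -0.191 to 0.227 (A_64_P023633) and from -0.215 to 0.156 (A_64_P119852).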
